A study of Zea mays with 2 samples.

Results

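The cell wall invertase genes mn1 (GRMZM2G119689) and incw1 (GRMZM2G139300) are 2 of the 41406 genes measured in maize (Zea mays) endosperm, the kernel tissue that stores starch and protein. They were picked by identifier with their values known, because mn1 was lower and incw1 was higher in the mutant, so their own levels and ratios are given as a description with no test. Endosperm was sampled at 12 DAP (days after pollination) in 1 library with the genotype dek40 and 1 library with the genotype wild type, both with kernel as the source. The series title and design name dek41 where the sample labels name dek40, so the mutant is called the dek40 library, after its label only. No label gives the background strain, the kind of mutation or the number of kernels pooled.

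Invertases split sucrose irreversibly into glucose and fructose. The cell wall forms are secreted and act on sucrose outside the cell, where it leaves the maternal tissue and before the endosperm takes sugar up. In maize, mn1 encodes the form also called INCW2, the main cell wall invertase of the basal transfer layer, the row of endosperm cells that takes in nutrients from the mother plant. Loss-of-function alleles of mn1 give the miniature kernels after which the gene is named. The gene incw1 encodes another cell wall invertase, whose transcripts respond to the sugar supply in cultured maize cells.

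The values are reads per gene divided by gene length and library size, headed RPKM for the dek40 library and FPKM for the wild-type library. The library totals recovered from the values were 14218436 for the dek40 library and 15669149 for the wild-type library. The deposited values of the median gene were 1.34-fold higher in the dek40 library, so its values were multiplied by 0.747 for all ratios described as scaled. Read numbers given below are the smallest that the values allow, whether of reads or read pairs, and their 95% exact Clopper-Pearson intervals cover counting error only. Neither genotype has a replicate, so there is no test, and every difference is between these libraries. The gene with the symbol Dek40 (GRMZM2G019538), not known to be the mutated locus, was at 32.0 RPKM in the dek40 library and 19.6 FPKM in the wild-type library. The 22 genes described as zeins, the endosperm storage proteins, made up 2.49% of all summed levels in the dek40 library and 16.1% in the wild-type library, so both libraries carry the defining transcripts of endosperm.

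The transcript of mn1 was at 8.53 RPKM in the dek40 library, against 59.3 FPKM in the wild-type library. These levels rest on at least 216 reads in the dek40 library and at least 1653 in the wild-type library, over an implied gene length of 1780 bases. The mutant library was the low one, with mn1 6.94-fold lower as deposited and 9.29-fold lower after scaling. The log2 ratio of the scaled levels was -3.22, with a counting interval of -3.43 to -3.01. With a pseudocount of 1 added to both levels, which is the scale used to compare genes here, the log2 ratio was -3.03.

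The transcript of incw1 was at 10.6 RPKM in the dek40 library, against 1.25 FPKM in the wild-type library. At least 277 reads lie behind the value of the dek40 library and at least 36 behind that of the wild-type library, over an implied length of 1834 bases. Here the mutant library was the high one, with incw1 8.48-fold higher as deposited and 6.34-fold higher after scaling. The log2 ratio of the scaled levels was 2.66, with a counting interval of 2.16 to 3.21, wider than that of mn1 because of the few wild-type reads. The pseudocount brought the log2 ratio of this gene to 1.99, a 3.97-fold difference, which lies below the counting interval.

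**Figure D1:**
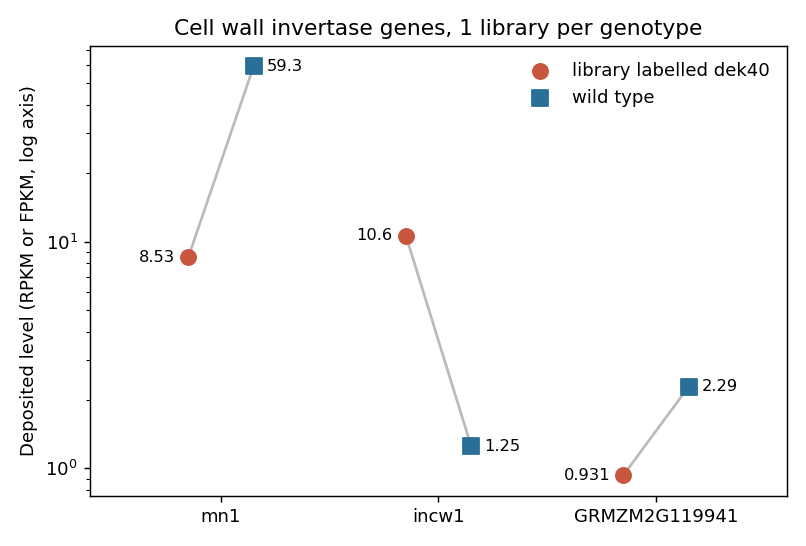
Deposited level of each cell wall invertase gene (RPKM in the dek40 library, FPKM in the wild-type library, log axis), 1 point per library with its value beside it. The lines for mn1 (8.53 and 59.3) and incw1 (10.6 and 1.25) slope in opposite directions, and the line for GRMZM2G119941 (0.931 and 2.29) slopes as that of mn1 does.

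The ratio of the genes to each other within a library does not depend on how the libraries are scaled. The level of mn1 was 0.803 times that of incw1 in the dek40 library (counting interval 0.669 to 0.963) and 47.3 times that of incw1 in the wild-type library (34.0 to 67.8). The ratio was thus 58.9-fold lower in the dek40 library. Of the summed level of the pair, mn1 made up 44.6% in the dek40 library and 97.9% in the wild-type library. Thus mn1 stood below incw1 in the dek40 library and above it in the wild-type library. The genes were chosen because they moved in opposite directions, so a lower ratio in the dek40 library follows from the choice.

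The gain of incw1 was smaller than the loss of mn1. The summed level of the pair was 19.2 RPKM in the dek40 library as deposited, or 14.3 after scaling, against 60.5 FPKM in the wild-type library. The sum was 3.16-fold lower as deposited and 4.23-fold lower after scaling. On the scaled values incw1 stood 6.69 higher and mn1 stood 52.9 lower in the dek40 library, so the difference in incw1 was 12.6% of that in mn1. As deposited, it was 18.5%. These are transcript levels per length and say nothing of enzyme activity.

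Against all genes, both members stood near the ends when ranked by log2 ratio, though not near the limits of its range, -6.11 and 6.06. The comparison took in 28178 genes whose scaled level was 1 or more in either library, and a gene was counted when it passed 2-fold on the pseudocount scale. Of these, 6.33% were higher in the dek40 library and 4.99% lower, and incw1 was among the higher and mn1 among the lower. With the values as deposited, 29142 genes reached a level of 1, of which 14.7% were higher and 2.65% lower, and both members fell on the same sides. Of all genes compared, 54 had a lower log2 ratio than mn1, and 179 had a higher one than incw1. Because the genes were chosen for this contrast, their places in it are a description.

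Genes of like wild-type level were also looked at. There were 1950 other genes with a wild-type level within 1.5-fold of that of mn1, and their median log2 ratio was -0.09. Of them, 146 were lower by 2-fold and 6 were as low as mn1 or lower. There were 4322 other genes with a wild-type level within 1.5-fold of that of incw1, with a median log2 ratio of 0.11. Of these, 299 were higher by 2-fold and 35 were as high as incw1 or higher. Genes with a wild-type level below 1 entered only if their scaled level in the dek40 library reached 1. This raises the median and the share of higher genes among those near incw1. By level, 34.7% of all genes stood above mn1 in the dek40 library and 5.91% did in the wild-type library. For incw1 the shares were 30.6% in the dek40 library and 59.8% in the wild-type library.

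**Figure D2:**
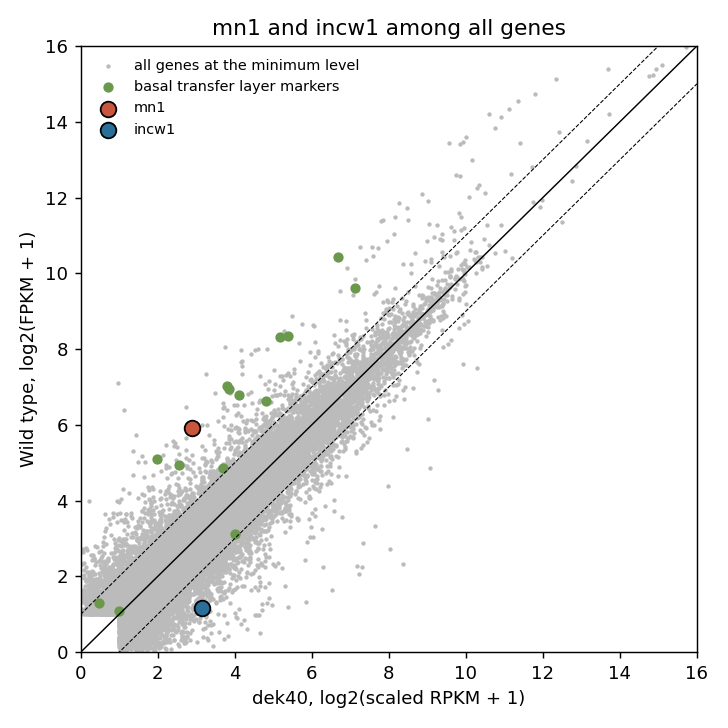
Level of each of the 28178 genes compared, as log2(scaled RPKM + 1) in the dek40 library (x axis) and log2(FPKM + 1) in the wild-type library (y axis), with mn1, incw1 and the 14 transfer layer markers in colour. The solid line marks equal levels and the dashed lines a 2-fold difference, and mn1 and incw1 lie outside the dashed lines on opposite sides.

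The genes closest to each member in log2 level over both libraries, among 9096 others with a description or symbol, were found by their distance in log2 units. Over 2 libraries such likeness is a weak measure and is given as a description. Closest to mn1 were z1B_8 (GRMZM2G025763), at a distance of 0.29, pco129120b (GRMZM2G006219), described as a VAP27 protein, at 0.42, and the cystatin cc6 (GRMZM2G401328), at 0.54. The levels of z1B_8 were 10.6 RPKM in the dek40 library and 62.6 FPKM in the wild-type library. They rest on at least 8 reads in the dek40 library and 52 in the wild-type library, over an implied length of 53 bases. Closest to incw1 were a pectinesterase (GRMZM2G175499), at 0.07, the potassium transporter HAK1 (GRMZM2G093826), at 0.08, and GRMZM5G872234, described as orf120, at 0.10. The pectinesterase was at 10.5 RPKM in the dek40 library and 1.14 FPKM in the wild-type library. The levels of GRMZM5G872234 rest on at least 27 reads in the dek40 library and 4 in the wild-type library.

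The files held 1 more gene described as a cell wall invertase, GRMZM2G119941. It was at 0.931 RPKM in the dek40 library, against 2.29 FPKM in the wild-type library, on at least 24 reads in the dek40 library and at least 65 in the wild-type library. The mutant library was again the low one, with a scaled log2 ratio of -1.72 and a counting interval of -2.46 to -1.02. With the pseudocount the log2 ratio was -0.96, just short of the 2-fold rule. Among the 3 cell wall invertases, mn1 held 42.5% of the summed level in the dek40 library and 94.4% in the wild-type library. The share of incw1 was 52.9% in the dek40 library and 1.99% in the wild-type library.

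Besides the cell wall forms, plants have acid invertases in the vacuole and neutral or alkaline ones inside the cell. The vacuolar gene IVR1 (GRMZM2G394450) was at 1.40 RPKM in the dek40 library and 0.381 FPKM in the wild-type library. These levels rest on at least 20 reads in the dek40 library and at least 6 in the wild-type library. Its scaled log2 ratio was 1.46, with a counting interval of 0.09 to 3.06, and 0.57 on the pseudocount scale. The neutral or alkaline gene GRMZM2G040843 was at 13.5 RPKM in the dek40 library and 15.9 FPKM in the wild-type library, a log2 ratio of -0.61 on the pseudocount scale. The other 2 of the 7 invertase genes, the vacuolar ivr2 (GRMZM2G089836) and the neutral GRMZM2G136139, did not reach a level of 1.

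The order of these 7 genes differed between the libraries. In the dek40 library, GRMZM2G040843 stood first and incw1 second, a ratio of 1.27 with an interval of 1.08 to 1.49, and mn1 followed. In the wild-type library, mn1 stood first, 3.73-fold above GRMZM2G040843 (3.36 to 4.15), and incw1 came next after GRMZM2G119941, which was 1.83-fold above it (1.20 to 2.83). Neighbours whose interval held a ratio of 1 were IVR1 and GRMZM2G119941, and GRMZM2G119941 and ivr2, in the dek40 library, and IVR1 and ivr2 in the wild-type library. Of the summed invertase level, mn1 held 23.9% in the dek40 library and 74.7% in the wild-type library, while incw1 held 29.8% in the dek40 library and 1.58% in the wild-type library.

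Invertase inhibitors are small proteins that block the enzyme. The list held 2 genes, of which AC213432.2_FG004, described as like inhibitors of pectin methylesterase or invertase, reached a level of 1. It was at 4.30 RPKM in the dek40 library and 1.95 FPKM in the wild-type library, on at least 34 reads in the dek40 library and at least 17 in the wild-type library, with a log2 ratio of 0.51. Its counting interval without a pseudocount was -0.16 to 1.65 after scaling and 0.26 to 2.07 as deposited, so whether it leaves out 0 depends on the scaling.

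Over the 8 lists of sucrose cleavage, transport and hexose use, 35 of 43 genes reached the minimum level, and 4 were higher and 3 lower, with a median log2 ratio of 0.18 against 0.02 over all genes compared. As deposited, 8 were higher and 3 lower, where the shares over all genes were 14.7% and 2.65%. Without mn1 and incw1, 3 of 33 genes were higher and 2 were lower, shares to be read against the 6.33% and 4.99% over all genes. Of the 3 sucrose synthases that reached a level of 1, enzymes that split sucrose reversibly inside the cell, sh1 (GRMZM2G089713) was lower, at 1740 RPKM in the dek40 library and 5101 FPKM in the wild-type library, while sus1 (GRMZM2G152908, log2 ratio 0.34) and sus2 (GRMZM2G318780, -0.33) stayed within 2-fold. Of 6 hexokinases and fructokinases, which phosphorylate the hexoses that invertase releases, 2 were higher and 0 were lower. These were frk2 (GRMZM2G051677), at 249 RPKM in the dek40 library and 66.0 FPKM in the wild-type library, and a fructokinase-2 gene (GRMZM2G072091), at 43.4 RPKM in the dek40 library and 11.5 FPKM in the wild-type library. Of 14 sugar transporters, 1 was higher, the monosaccharide transporter mstr1 (GRMZM2G135739, log2 ratio 1.13 on at least 49 reads in the dek40 library and 5 in the wild-type library), and 1 was lower, an MtN3-like gene (GRMZM2G015976, -1.61 on at least 3 reads in the dek40 library and 17 in the wild-type library). As deposited, 5 transporters were higher, where 14.7% of all genes were. All 6 genes of sucrose resynthesis that reached a level of 1 stayed within 2-fold.

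**Figure D3:**
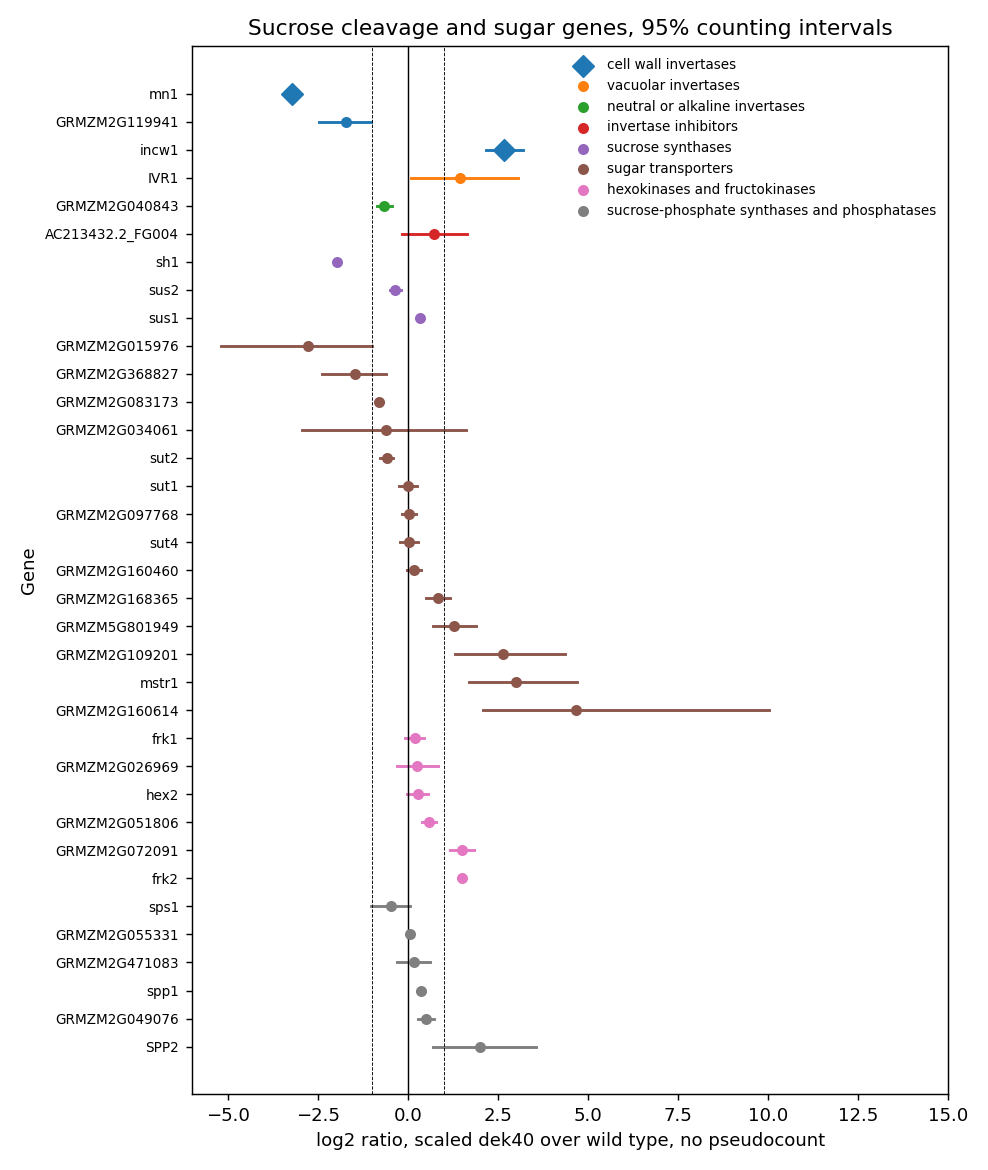
The log2 ratio of the scaled level of the dek40 library over that of the wild-type library, without a pseudocount, for each of the 35 genes of the 8 lists, with its 95% counting interval (lines). Diamonds mark mn1, at -3.22, and incw1, at 2.66, and dashed lines mark 2-fold.

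Since mn1 is expressed in the basal transfer layer, its values are set beside the markers of those cells. Of 14 markers, 11 were lower, 0 were higher and 0 were listed at 0 in either library, with a median log2 ratio of -2.58, where 4.99% of all genes were lower and 6.33% higher. As deposited, 10 were lower and 1, bap-3a, was higher, where 2.65% of all genes were lower and 14.7% higher. The list includes mrpa1 (GRMZM2G113203) through its synonym MRP1, which may not be the transfer layer regulator of that name. The summed level of the markers was 563 RPKM in the dek40 library, or 421 after scaling, against 3369 FPKM in the wild-type library. In bulk tissue, fewer cells of a type and less RNA per cell cannot be told apart.

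In its log2 ratio mn1 lay within the range of the markers, which ran from -3.76 to 0.88, with 5 markers below it and 9 above. All 22 genes described as zeins were lower as well, where 4.99% of all genes were, with a median log2 ratio of -3.21. Their range, -3.89 to -1.68, also holds mn1, so its place is not particular to the transfer layer markers. The zein list went by description, so genes without one, such as z1B_8, are not in it. Relative to the summed level of the markers in the same library, mn1 stood at 1.52% in the dek40 library and 1.76% in the wild-type library, a share that does not depend on the scaling between libraries. All 14 markers had a lower log2 ratio than incw1, as did 99.4% of all genes compared. Relative to the same sum, incw1 stood at 1.89% in the dek40 library and 0.0372% in the wild-type library. The part of the transfer layer markers in the difference of mn1 was not tested.

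**Figure D4:**
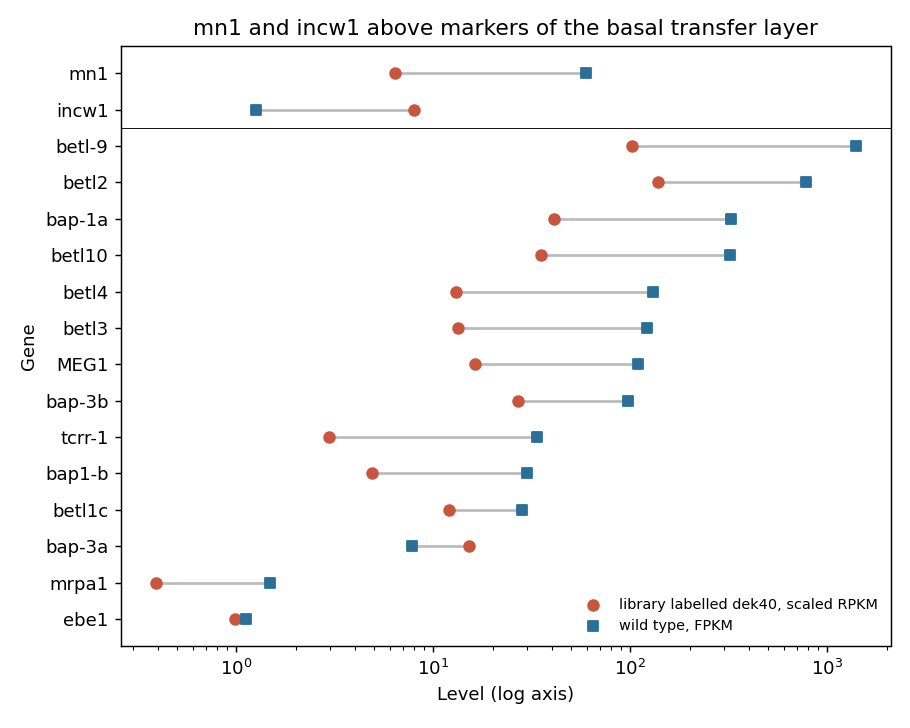
Level of mn1 and incw1 (above the line) and of the 14 transfer layer markers (below it), as scaled RPKM in the dek40 library (circles) and FPKM in the wild-type library (squares), on a log axis. For mn1 and all markers but bap-3a the circle lies left of the square, and for incw1 and bap-3a it lies right of it.

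Markers of other kernel tissues are given beside incw1. The aleurone gene AL-9 (GRMZM2G091054) was higher, at 7778 RPKM in the dek40 library and 2607 FPKM in the wild-type library. Of 7 embryo markers, oleosins and Globulin-1, 3 were lower and 0 were higher after scaling, and 1 was lower and 0 were higher as deposited. The gene lower in both ways, GRMZM2G410152, rests on at least 2 reads in the dek40 library and 8 in the wild-type library. The implied length is only 33 bases, so the true reads may be many more. On the smallest reads its scaled counting interval of -5.55 to 0.04 holds 0, and more reads would narrow it. The summed level of the 7 embryo markers was 527 RPKM in the dek40 library, or 394 after scaling, and 738 FPKM in the wild-type library. Of 11 genes of green tissue, 1 was higher and 3 were lower, both after scaling and as deposited, and the summed level of all 20 listed was 29.7 RPKM in the dek40 library, or 22.2 after scaling, and 42.3 FPKM in the wild-type library. These counts are to be read against the 6.33% higher and 4.99% lower over all genes after scaling, and the 14.7% and 2.65% as deposited. The part of these tissues in the difference of incw1 was not tested.

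The direction of both members was the same under each of the 6 other settings tried, none of which could have reversed it. A pseudocount added to both levels does not change the sign of a ratio. Leaving out the scaling shifts log2 ratios without a pseudocount by 0.42, far less than the size of either ratio. Over these settings the log2 ratio was between -3.22 and -2.50 for mn1, and between 1.05, with a pseudocount of 5, and 2.66, with none, for incw1.

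**Figure D5:**
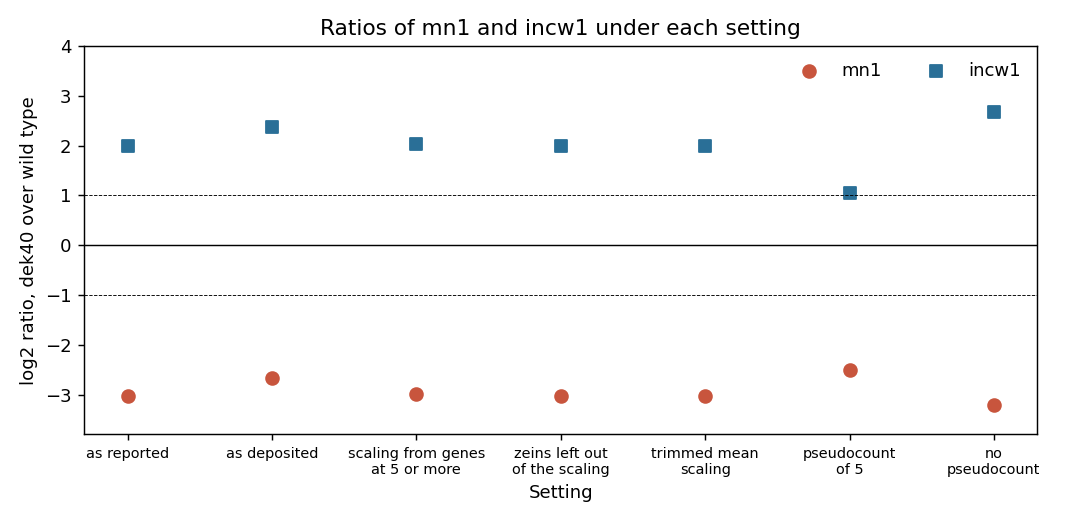
The log2 ratio of mn1 (circles) and incw1 (squares), dek40 library over wild-type library, as reported and under 6 other settings of scaling and pseudocount, with dashed lines at 2-fold. The circles lie between -3.22 and -2.50 and the squares between 1.05 and 2.66.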

How the data were processed

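The submitters' processing notes list the maize build B73 RefGen v3 and the aligner Bowtie2 2.1.0. How reads were counted, the annotation and filters are not given in the sources used. Each file deposited by the authors has 1 value per gene, headed RPKM for the dek40 library and FPKM for the wild-type library, per the file headers. Neither file holds a value of 0, so genes read in 1 library alone are not analysed here.

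Dividing the deposited values of each of the 41406 genes by each other gave 1.1020 times a fraction of whole numbers (relative tolerance 1e-12), from which the library totals follow. Reads per gene are the smallest whole numbers that give this ratio and a whole gene length in bases (within 1e-06). These are lower bounds, and no count test was run. They served for exact Clopper-Pearson intervals, which were tried on simulated reads that varied by counting error alone. That trial says nothing of variation between libraries.

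Values of the dek40 library were scaled by 0.747 to a median ratio of 1 over 25115 genes at 1 or more in both libraries. The median log2 ratio before scaling was 0.42. Log2 ratios have a pseudocount of 1 unless stated, which understates the difference of low genes. Genes counted as higher or lower passed 2-fold and reached 1 in at least 1 library. Reads that fall on close copies may be split between them.

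Members, lists and settings were chosen with earlier results of these data known. Lists were made from words in the deposited descriptions and from symbols in a RefSeq table of Zm-B73-REFERENCE-NAM-5.0, where 16689 identifiers matched. Nucleotide-sugar transporters, phosphofructokinases and an SPS1-related kinase were left out. Coordinates are left out because that table is of another build. The rule for named genes took the members, the invertases, inhibitors and sucrose synthases at 1 or more, genes of the other sugar lists past 2-fold, and the 3 genes nearest each member. Outside it, ivr2, GRMZM2G136139, AL-9, bap-3a, mrpa1, GRMZM2G410152 and Dek40 are named, with their values known, and marker lists are given by counts. Alternatives were the values as deposited, other scalings, pseudocounts, minimum levels and a 4-fold rule. Python 3.11.15, numpy 2.4.6, pandas 2.3.3 and scipy 1.17.1 were used.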

Additional observations from a re-analysis of the deposited data

How the results depend on the processing

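No paired analysis was possible because there is 1 library per genotype and no test. As deposited, the log2 ratio was -2.66 for mn1 and -1.61 for the summed level of the pair (-2.01 as reported), and that of incw1 was 2.37. With a pseudocount of 5 the log2 ratios were -2.50 for mn1, 1.05 for incw1 and -1.76 for the sum, and the difference in log2(mn1 over incw1) was -3.55, against -5.02 with a pseudocount of 1. With no pseudocount that difference was -5.88, and incw1 was at 2.66. Scaling from genes at 5 or more in both libraries, without the zeins or by a trimmed mean moved the log2 ratios of mn1 and incw1 by less than the half-width of their counting intervals.

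Over all genes, 1784 were higher and 1406 lower as reported (55.9% of the calls higher), 4282 and 771 as deposited (84.7% higher), 514 and 558 with a pseudocount of 5, and 177 and 223 at 4-fold. With a minimum level of 5, 1152 were higher. Over the 8 sugar lists, 8 genes were higher as deposited, and at 4-fold 0 were higher and 1 was lower. The 12 counts of single lists and marker sets that were above 0 as reported stayed within 1.5-fold in 54 of 72 repeats and moved further in 18. The 36 wild-type reads of incw1 limit its precision, and the pseudocount moves its ratio most.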
